A study of Mus musculus with 6 samples.

Results

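The p53 network was described here through 34 genes: Trp53, which encodes p53, its regulators Mdm2 and Mdm4, and genes known as transcriptional targets of p53 in other settings. The genes were taken by symbol, and all 34 were among the 49492 gene symbols of the deposited count table, of which 33 passed the filter on low counts. RNA was measured by poly(A) RNA-seq in palatal shelves, the outgrowths that form the roof of the mouth, of C57BL mouse embryos at E14.5, around the time the shelves rise above the tongue. The 3 control libraries were PRMT1 fl/fl, meaning that both Prmt1 alleles carry loxP sites and no Cre was listed. The 3 deletion libraries were Wnt1-Cre; PRMT1 fl/fl, so that both groups share the floxed alleles. Wnt1-Cre is active in the neural crest, the source of most palatal mesenchyme, and leaves palatal epithelium, skeletal muscle, blood and endothelium with their Prmt1 alleles intact. No library with Cre alone was analysed here, so an effect of the transgene and of the deletion cannot be told apart. Libraries are named by the numbers in the column names of the table, 212, 213 and 220 for control and 208, 211 and 221 for deletion.

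p53 is a transcription factor that is held at low activity by MDM2, a ubiquitin ligase that targets it for destruction, and by the related protein MDM4. DNA damage, ribosomal stress and other insults release it, and it then raises transcription of genes for cell cycle arrest, DNA repair, apoptosis and its own restraint. Because this control acts mainly on the protein, Trp53 mRNA alone is a poor measure of p53 activity, and the mRNA of its targets is the usual readout. In the craniofacial neural crest, excess p53 activity is known for causing cell death and facial malformation. PRMT1, the enzyme deleted here, places asymmetric dimethyl marks on arginines of histones and RNA-binding proteins.

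Libraries held 44919889 to 50022829 estimated counts. Prmt1 was at 246 to 258 CPM (counts scaled to a common library size by TMM) in the controls and 201 to 217 CPM in the deletion libraries. Its log2 fold change was -0.27 ± 0.05 (SE; edgeR's quasi-likelihood test, Benjamini-Hochberg adjusted p = 0.0113). The deletion libraries thus held 82.7% of the control level. Counts were given per gene and for all cell types together, so how complete the deletion was in neural crest cells was not measured. The 8 palate mesenchyme markers summed to 1581 to 1775 CPM in controls and 1673 to 1736 CPM in deletion libraries, and 0 of 8 passed the threshold of adjusted p under 0.05 (1 of 8 at an unadjusted p under 0.05, 0 of 8 by DESeq2). Prrx1 alone gave 751 to 890 CPM of that sum in controls, so the sum says little about the weaker markers. Msx1 ranged widely within both groups, from 51.7 to 178 CPM in controls and from 61.1 to 188 CPM in deletion libraries. Other cell types differed: 7 of 14 epithelial markers were lower, 8 of 12 skeletal muscle and 6 of 9 cartilage markers were higher, and 2 of 7 bone markers were lower by edgeR (6 of 7 by DESeq2, median log2 fold change -1.81). Of 7 neuron and glia markers, 1 was higher by edgeR and 5 by DESeq2. In bulk tissue, a change in the share of a cell type and a change in RNA per cell cannot be told apart. Controls 212 and 213 had 15.5 and 16.0 CPM of Xist, while the other 4 libraries, control 220 among them, had 3384 to 4487 CPM, so the groups were unbalanced for embryo sex. The labels do not say that libraries came from separate embryos, so the spread behind each p-value is that of these 6 libraries and may in part be technical.

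The sequence that p53 recognises is a pair of copies of a 10-base motif, the p53 decamer, and promoters of members that hold it are shown first. RefSeq promoter windows on build GRCm38.p6, from 250 bases before to 50 bases after each transcription start, were matched by symbol for 27 of the 34 members (40 windows). Entries were missing for 9030617O03Rik, Perp, Pmaip1, Rrm2b, Tnfrsf10b, Trp53inp1 and Zmat3. The motif pattern, though not each match to it, is its own reverse complement, so a search of 1 strand covers both. An exact decamer lay in 10 of the 40 windows (25%), against 2745 of 32851 windows of all genes (8.4%). Those 10 windows belonged to 9 genes, Trp53, Mdm2, Ccng1, Bax, Ei24, Aen, Gtse1, Sesn1 and Polk, with the same Aen motif counted in both of its overlapping windows. With 1 mismatch allowed outside the central C and G, the shares were 52.5% and 50.9%. A pair of decamers at most 13 bases apart, with at most 2 mismatches over both, lay in 5 of the 40 windows (12.5%) and in 4.1% of all windows. The pairs of Ccng1, Bax and Gtse1 and single exact decamers of Ei24, Mdm2 and Trp53 were as follows, with decamers in capitals and the bases between them in lower case.
Ccng1 pair, from base -195: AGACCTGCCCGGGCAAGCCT
Bax pair, from base -216: TGACAAGCATatcccAGGCAAGCTT
Gtse1 pair, from base -1: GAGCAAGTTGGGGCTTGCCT
Ei24 decamer, from base -10: GGGCATGCCC
Mdm2 decamer, from base -186: GAACTTGCCT
Trp53 decamer, from base -75: GGACTTGCCC

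Positions count from the transcription start of the window that holds the motif, with -1 the last base before it. Gtse1 also has an upstream window, chr15:85859457-85859756, which holds no pair. Seen from that upstream start, the Gtse1 pair lies inside the transcribed region. The Ccng1 pair has 1 mismatch and no gap, the Bax pair has 2 mismatches and a gap of 5 bases, and the Gtse1 pair has 1 mismatch and no gap. A match is a description of the letters and not evidence of binding, and p53 sites outside these windows, such as those in first introns, were not searched. For 4 members, picked as examples, the 250 bases before the start are given whole. Ccng1 holds a pair and Mdm2 a single exact decamer, and neither passed the test. Eda2r and Ercc5 are the called members with a window, and neither window holds an exact decamer. Trp53inp1, Pmaip1 and Perp were also called but had no window, and a relation between motif and change was not tested. Capitals again mark exact decamers and those of a pair, and other decamers with 1 mismatch are left unmarked. The stretches are chr11:40755287-40755536, minus strand for Ccng1, chr10:117710759-117711008, minus strand for Mdm2, chrX:97377210-97377459, minus strand for Eda2r and chr1:44147494-44147743, plus strand for Ercc5.
Ccng1: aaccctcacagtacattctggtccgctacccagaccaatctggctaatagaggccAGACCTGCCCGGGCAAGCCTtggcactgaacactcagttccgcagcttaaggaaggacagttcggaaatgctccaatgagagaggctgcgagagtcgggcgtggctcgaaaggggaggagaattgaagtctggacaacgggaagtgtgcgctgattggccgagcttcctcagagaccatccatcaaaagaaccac
Mdm2: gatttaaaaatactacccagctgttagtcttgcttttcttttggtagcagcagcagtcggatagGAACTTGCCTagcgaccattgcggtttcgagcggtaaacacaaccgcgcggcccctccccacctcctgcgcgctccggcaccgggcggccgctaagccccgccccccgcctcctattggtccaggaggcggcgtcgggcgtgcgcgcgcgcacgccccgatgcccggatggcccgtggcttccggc
Eda2r: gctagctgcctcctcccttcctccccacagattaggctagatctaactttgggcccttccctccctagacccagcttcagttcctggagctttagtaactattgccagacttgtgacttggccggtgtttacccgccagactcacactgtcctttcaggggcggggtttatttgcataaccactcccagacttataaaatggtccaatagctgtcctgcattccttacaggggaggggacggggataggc
Ercc5: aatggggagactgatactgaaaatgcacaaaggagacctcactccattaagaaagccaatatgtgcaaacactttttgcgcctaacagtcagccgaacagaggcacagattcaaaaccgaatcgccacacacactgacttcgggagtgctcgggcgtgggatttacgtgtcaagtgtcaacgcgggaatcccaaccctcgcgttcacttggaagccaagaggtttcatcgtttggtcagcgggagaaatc

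Of the 33 tested members, 3 rose (Trp53inp1, Eda2r and Ercc5), 2 fell (Pmaip1 and Perp) and 28 did not pass. The 5 called members are 15.2% of those tested, and 7.01% of all 19284 genes tested were called, 3.65% higher and 3.37% lower. Members had a median log2 fold change of 0.06, against 0.00 for all genes tested, and the median size of change regardless of direction was 0.15 and 0.14. Fold changes were above 0 in 20 members and below 0 in 13, and 14 of 33 had an unadjusted p under 0.05, as did 22.5% of all genes tested. The 3 deletion and 3 control libraries did not overlap in 17 members, 11 with deletion above and 6 with deletion below (51.5%, against 27.5% of all genes tested). Of the 28 members that did not pass, 27 differed by less than 1.5-fold, and the 95% interval of 26 of the 33 members lay within 1.5-fold in either direction.

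**Figure D1:**
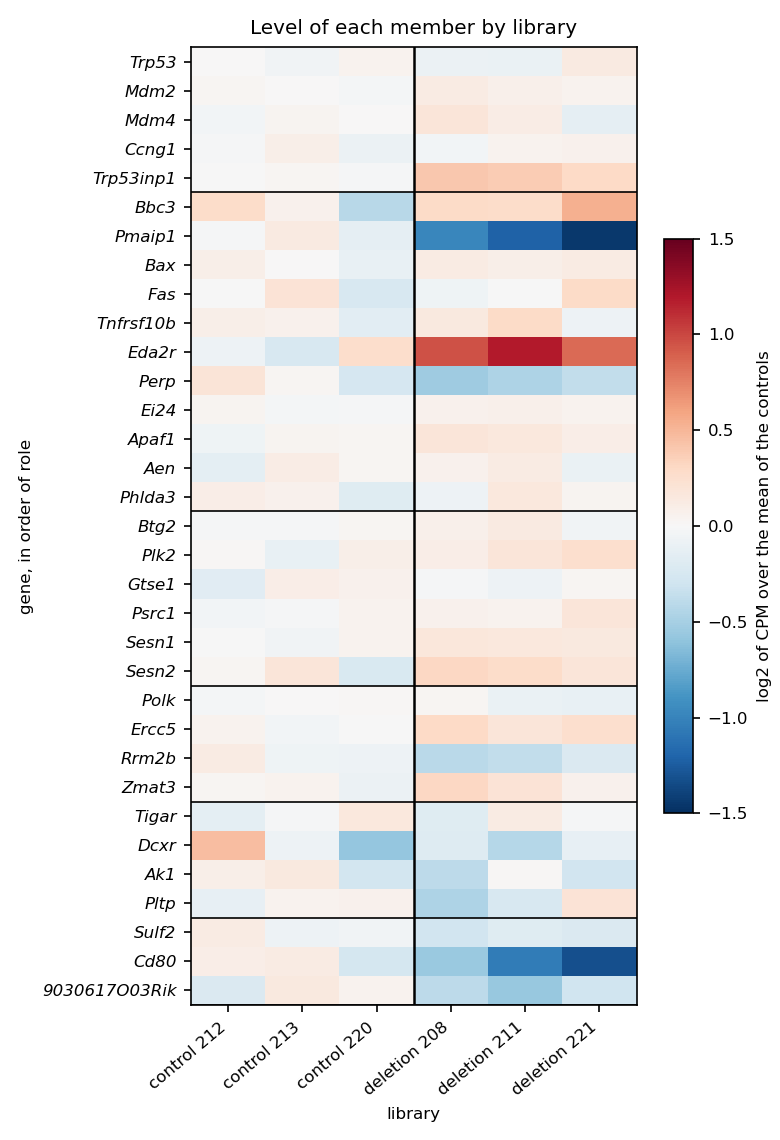
Level of each of the 33 tested members (rows, in order of role, separated by lines) in each library (columns), as log2 of CPM over the mean of the 3 controls. Red is above and blue is below the control mean, with Pmaip1 and Cd80 the deepest blue and Eda2r the deepest red in the deletion libraries.

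With embryo sex as a covariate, where the group difference rests on control 220 alone, 0 members rose and 0 fell by edgeR, with 9 of 33 at an unadjusted p under 0.05 (14.3% of all genes). Of all genes, 0.669% were called, 0.337% higher and 0.332% lower. The 5 called members kept their direction there, with log2 fold changes of 0.38 for Trp53inp1, 0.74 for Eda2r, 0.25 for Ercc5, -1.07 for Pmaip1 and -0.20 for Perp. The contrast against control 220 without 212 and 213 is nearly the same comparison and also called 0 members, with 8 at an unadjusted p under 0.05 and 0.435% of all genes called (0.215% higher, 0.22% lower). With 1 library left out at a time, Trp53inp1 and Pmaip1 passed all 6 times, Eda2r 4 times, Ercc5 2 times and Perp 1 time. Of all genes, 4.78% were called without control 212, 1.81% without control 213 and 7.04% without control 220. The share was 2.77% without deletion 208, 3.59% without deletion 211 and 9.45% without deletion 221.

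Other tools and settings with all 6 libraries and no sex covariate called 5 members or, for the DESeq2 Wald test, 6. Without a low count filter, Sulf2 took the place of Perp. DESeq2 called 3 higher and 3 lower, with Sulf2 added, and 11.5% of all genes, and limma voom called 3 higher and 2 lower and 6.07% of all genes. Of all genes, 7.02% were called with DESeq2 size factors in edgeR, 7.3% with upper-quartile factors and 6.54% with robust=FALSE. The shares were 6.29% without a low count filter, 8.17% with a filter of CPM of 1 in 3 libraries and 6.99% without erythroid, muscle and sex genes.

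The first group holds p53 itself and the genes that restrain or assist it. Trp53 (chromosome 11, 69580359 to 69591873, plus strand, mm10) was at 117.7, 113.4 and 121.7 CPM in controls and 110.9, 109.9 and 129.6 CPM in deletion libraries. The groups overlapped, with deletion 221 the highest of all 6 libraries and deletion 208 and 211 the lowest. The log2 fold change was -0.01, with a 95% interval of -0.16 to 0.14 (edgeR adjusted p = 0.952), and its sign turned when control 220, deletion 208 or deletion 211 was left out (-0.09 to 0.03 over the 6 omissions).

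Mdm2, the ubiquitin ligase and itself a classic p53 target, was at 64.3, 63.3 and 62.0 CPM in controls and 68.9, 66.4 and 65.6 CPM in deletion libraries. Every deletion library lay above every control by a small margin, and the log2 fold change of 0.08 (95% interval -0.03 to 0.20) did not pass (edgeR adjusted p = 0.381). Mdm4, whose protein blocks the activation domain of p53, was at 270.6, 285.5 and 278.4 CPM in controls and 315.5, 301.1 and 253.0 CPM in deletion libraries. Deletion 208 and 211 were above and deletion 221 below every control (log2 fold change 0.06, adjusted p = 0.711 by edgeR). Reads were summed per gene, so Mdm4 transcripts with and without the alternatively skipped exon are added together and a shift between them could not be seen. Ccng1, cyclin G1, whose promoter pair is printed above, was at 65.8 to 74.2 CPM in controls and 68.0 to 72.9 CPM in deletion libraries (log2 fold change 0.03, edgeR adjusted p = 0.846).

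Trp53inp1 encodes a stress protein that promotes phosphorylation of p53 and autophagy (chromosome 4, 11156431 to 11174379, plus strand). It was at 50.96, 52.46 and 50.63 CPM in controls and 67.71, 67.04 and 62.95 CPM in deletion libraries. All 3 deletion libraries lay above all controls, and the controls differed among themselves by less than 2 CPM. Trp53inp1 rose by 0.36 ± 0.06 on the log2 scale (SE; 1.28-fold, edgeR adjusted p = 0.00428), and by 0.34 to 0.39 with any 1 library left out. Set against the summed CPM of each of 9 cell type marker lists, Trp53inp1 was higher in every deletion library for 6 lists, with palate mesenchyme among them (36.3 to 40.2 per 1000 marker CPM against 28.5 to 32.2). It was lower for skeletal muscle (52.7 to 77.5 against 101 to 117) and cartilage markers (83.4 to 92.1 against 127 to 207), and the groups overlapped for neuron and glia. These ratios to marker sums were chosen after the values were seen, and the part of those cell types in the result was not tested. The sums themselves differed between groups, with bone at 1003 to 1401 CPM in controls and 263 to 475 CPM in deletion libraries. Cartilage was at 244 to 403 CPM in controls and 683 to 811 CPM in deletion libraries. A ratio thus moves with its marker sum as well as with the gene. For this and the other called members, the number of lists is no measure of support. Among the 5 genes of this role, 1 rose and 0 fell.

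**Figure D2:**
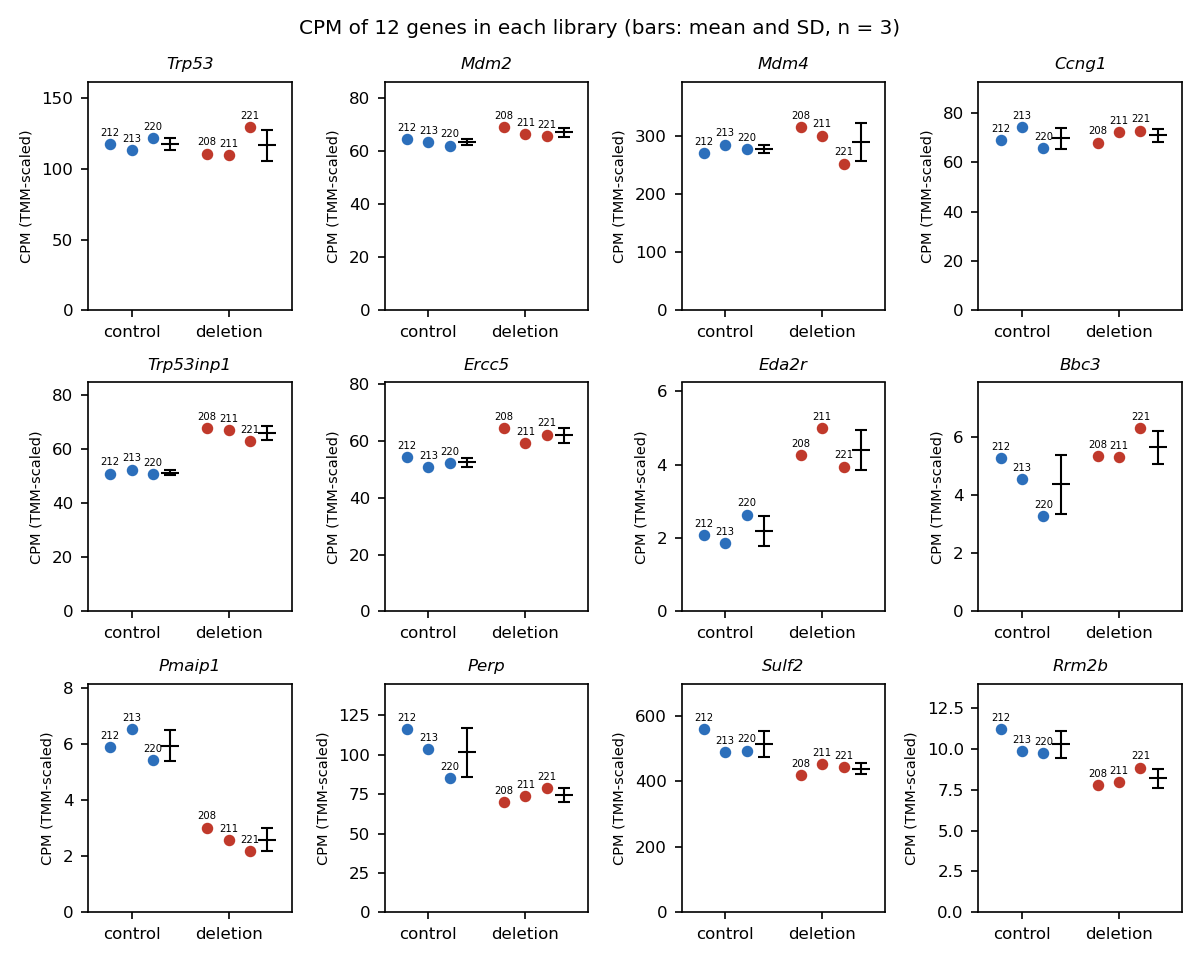
CPM (TMM-scaled, axes from 0) of 12 members in each library, with blue points for control, red points for deletion, library numbers above the points, and bars for mean and SD of 3 libraries. Groups overlap for Trp53, Mdm4 and Ccng1 and are separate for the remaining 9 genes.

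The apoptosis group held both of the largest called changes, in opposite directions. Of its 11 tested genes, 1 rose and 2 fell. Pmaip1 encodes Noxa, a BH3-only protein that neutralises MCL1 at the mitochondrion. It was at 5.88, 6.53 and 5.43 CPM in controls and 3.02, 2.56 and 2.19 CPM in deletion libraries, which is 98 to 323 counts per library. Every deletion library lay well below every control. Control and deletion means were 5.95 ± 0.549 and 2.59 ± 0.418 CPM (SD, 3 libraries each). Pmaip1 was 2.29-fold lower (log2 fold change -1.20 ± 0.17, SE, edgeR adjusted p = 0.00289), and the log2 value ranged from -1.32 to -1.09 with 1 library left out. Against marker sums, Pmaip1 was lower in every deletion library for 8 of the 9 lists. Epithelium was among them (1.58 to 2.80 per 1000 marker CPM against 3.20 to 3.61). Per 1000 CPM of bone markers the groups overlapped (4.61 to 11.5 against 4.60 to 5.86). The part of cell types in the Pmaip1 values was not tested.

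Bbc3 encodes Puma, the other well known BH3-only target of p53. It was at 5.27, 4.55 and 3.28 CPM in controls and 5.33, 5.30 and 6.30 CPM in deletion libraries. The lowest deletion library lay just above the highest control, and control 220 was apart at the low end. The log2 fold change of 0.37 (95% interval -0.04 to 0.78) did not pass (edgeR adjusted p = 0.273), and it was 0.20 without control 220 and 0.78 with sex as a covariate, also without passing. The 95% intervals of Pmaip1 and Bbc3 did not overlap, although the difference between the genes was not itself tested. Bax, the pore-forming effector of the same pathway, was at 40.9 to 47.0 CPM in controls and 46.8 to 48.1 CPM in deletion libraries (log2 fold change 0.11, edgeR adjusted p = 0.36). Apaf1, the core of the apoptosome, was at 66.3 to 71.4 and 74.7 to 78.9 CPM, without overlap and without passing (log2 fold change 0.15, edgeR adjusted p = 0.125).

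Eda2r, also called XEDAR, is a receptor of the tumour necrosis factor family for ectodysplasin A2 (chromosome X, 97333840 to 97377216, minus strand). It was at 2.09, 1.86 and 2.64 CPM in controls and 4.26, 5.0 and 3.95 CPM in deletion libraries, from 92 to 228 counts. All deletion libraries lay above all controls, and control 220 was the highest control. Eda2r is X-linked, and controls 212 and 213 differ in embryo sex from the deletion libraries, so the part of sex in this difference was not tested. With sex as a covariate, where the difference rests on control 220, the log2 fold change was 0.74. Control and deletion means were 2.20 ± 0.402 and 4.40 ± 0.536 CPM (SD, 3 libraries each). Eda2r rose 2.01-fold (log2 fold change 1.01 ± 0.19, SE, edgeR adjusted p = 0.0117). The call was lost without control 213 (0.90, edgeR adjusted p = 0.0716) or deletion 211 (0.90, edgeR adjusted p = 0.0526). Skeletal muscle markers moved with Eda2r: all 12 were detected, 8 of 12 rose, and their sum was 450 to 499 CPM in controls and 813 to 1272 CPM in deletion libraries. Per 1000 CPM of those markers, Eda2r was at 4.13 to 5.29 in controls and 3.93 to 4.86 in deletion libraries, so the groups overlapped, as they also did for cartilage and for neuron and glia markers. For the other 6 lists Eda2r was higher in every deletion library, with palate mesenchyme at 2.28 to 2.99 against 1.12 to 1.49. The part of muscle or of other cell types in the Eda2r values was not tested.

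The other death receptors did not pass. Fas, the receptor of Fas ligand, was at 3.45 to 4.71 CPM in controls and 3.90 to 4.98 CPM in deletion libraries (log2 fold change 0.08, edgeR adjusted p = 0.85). Tnfrsf10b, the mouse TRAIL receptor, was at 18.5 to 22 and 19.6 to 25.3 CPM (log2 fold change 0.12, edgeR adjusted p = 0.552). Eda2r had a 95% interval of 0.58 to 1.43, above those of Fas, -0.31 to 0.47, and Tnfrsf10b, -0.11 to 0.36, and differences between these genes were not tested.

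Perp encodes a membrane protein of desmosomes in stratified epithelium, and is a target of p63 as well as of p53 (chromosome 10, 18845020 to 18857073, plus strand). It was at 116.2, 103.7 and 85.3 CPM in controls and 70.2, 73.8 and 79.0 CPM in deletion libraries. The groups did not overlap, with control 220 the nearest to the deletion libraries. The log2 fold change was -0.45 ± 0.11 (SE; 1.37-fold lower, edgeR adjusted p = 0.0404), and the call was lost in each omission except that of control 220 (-0.56 to -0.35) and without the filter on low counts (edgeR adjusted p = 0.107). Epithelial markers moved with it: all 14 had fold changes below 0, 7 of 14 fell, and their sum was 1700 to 1807 CPM in controls and 1079 to 1383 CPM in deletion libraries. Per 1000 CPM of those markers, Perp was at 50.2 to 65.7 in controls and 57.2 to 65.0 in deletion libraries, so the groups overlapped. Of the 9 lists, Perp was lower in every deletion library for 5, palate mesenchyme included, higher for bone and overlapping for 3. The part of epithelium or of other cell types in the Perp values was not tested.

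**Figure D3:**
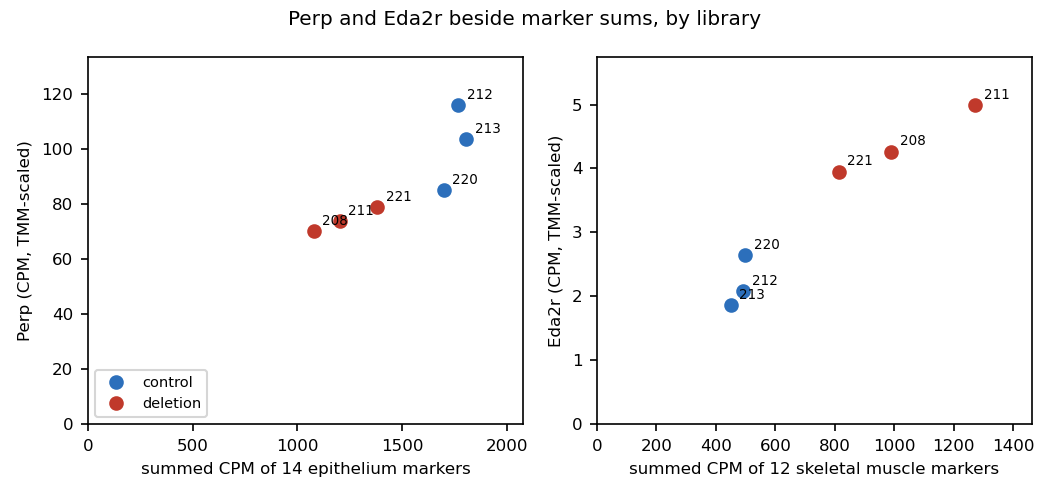
Perp against the summed CPM of 14 epithelial markers (left) and Eda2r against the summed CPM of 12 skeletal muscle markers (right), with all axes linear from 0. Each point is 1 library (control in blue, deletion in red), and in both panels the gene and the marker sum separate the groups in the same direction. The part of these cell types in the values of either gene was not tested.

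The remaining apoptosis genes stayed close to their control level. Ei24, an endoplasmic reticulum protein of autophagy with an exact decamer at its start, was at 94.5 to 99.9 CPM in controls and 100.2 to 102.1 CPM in deletion libraries (log2 fold change 0.06, edgeR adjusted p = 0.475). Aen, a nuclease induced in apoptosis, had a log2 fold change of 0.03 (-0.03 to 0.10 with 1 library left out). Phlda3, a repressor of AKT, had a log2 fold change of 0.04 (-0.04 to 0.10 with 1 library left out). Neither passed (edgeR adjusted p = 0.855 and 0.823).

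Among genes of arrest, growth and stress signalling, 0 of 6 tested passed by edgeR, DESeq2 or limma voom, and 3 of 6 had an unadjusted p under 0.05. Those 3 all lay higher in every deletion library. Over all genes tested, 22.5% had an unadjusted p under 0.05 and 14.1% had every deletion library above every control. Sesn1 and Sesn2 encode sestrins, which restrain mTORC1. Sesn1 was at 54.0, 52.1 and 56.3 CPM in controls and 61.1, 60.2 and 60.1 CPM in deletion libraries (log2 fold change 0.16, edgeR adjusted p = 0.112). Sesn2 was at 16.6, 18.4 and 13.9 CPM in controls and 20.3, 19.7 and 18.5 CPM in deletion libraries, with deletion 221 just above control 213 (log2 fold change 0.26, edgeR adjusted p = 0.177). Plk2, a polo-like kinase of centriole duplication, was at 107.0 to 123.5 and 124.7 to 138.4 CPM (log2 fold change 0.18, edgeR adjusted p = 0.116). Btg2, an antiproliferative gene (log2 fold change 0.06), and the microtubule genes Gtse1 (-0.02) and Psrc1 (0.10) overlapped between groups. Gdf15, a stress cytokine and a sensitive reporter of p53 and of the integrated stress response, was nearly absent. It had 1, 2 and 2 counts in controls and 0, 6 and 13 counts in deletion libraries. The count of 0 in deletion 208 allows up to 0.06 CPM for counting error only, and the gene was not tested.

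**Figure D4:**
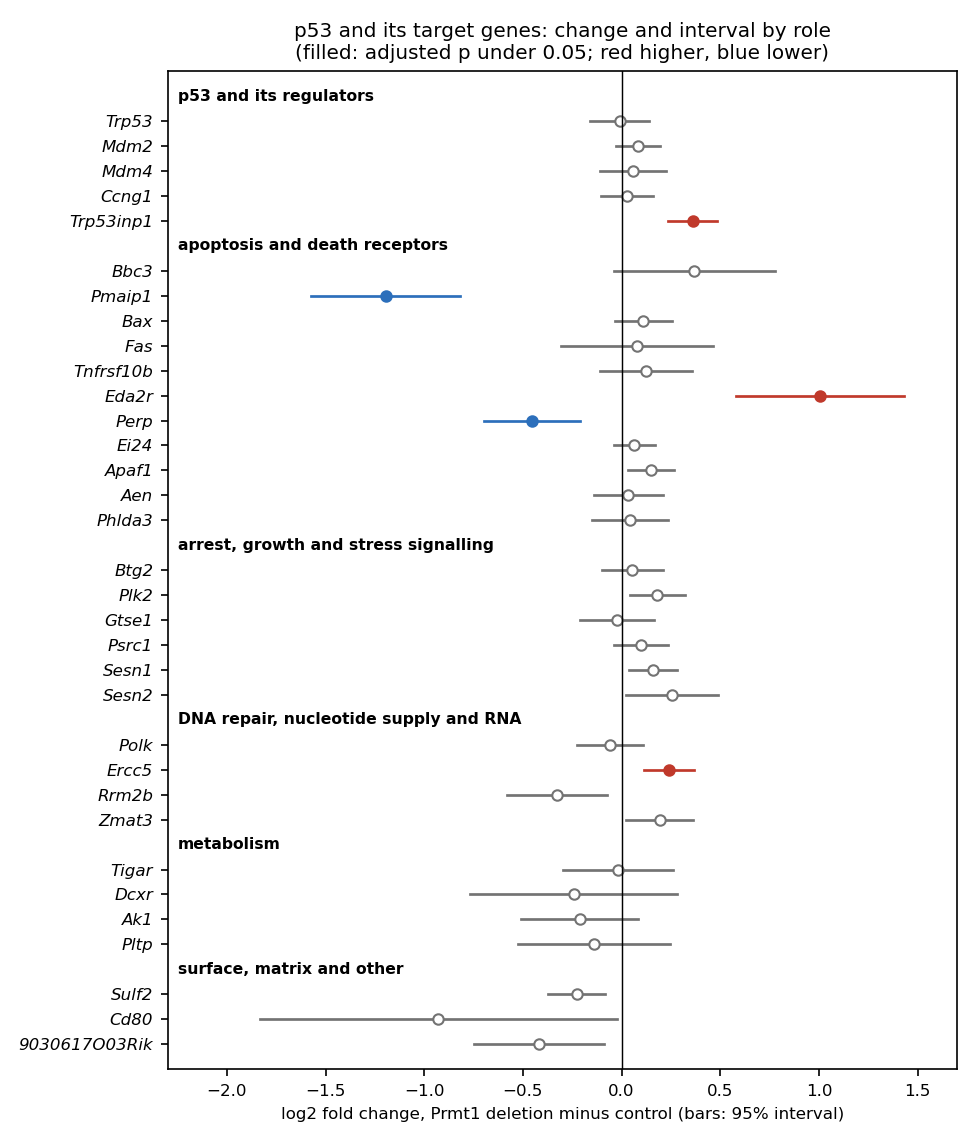
Log2 fold change (deletion minus control) of the 33 tested members by role, with 95% intervals from edgeR. Filled points passed at adjusted p under 0.05 (red higher, blue lower) and open points did not, with most open points near 0 and Cd80 having the widest interval.

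Of 4 genes for DNA repair, nucleotide supply and RNA, 1 rose and 0 fell. Ercc5 encodes XPG, the endonuclease that cuts 3' of the lesion in nucleotide excision repair (chromosome 1, 44147744 to 44181260, plus strand). It was at 54.3, 50.9 and 52.2 CPM in controls and 64.5, 59.4 and 62.3 CPM in deletion libraries, with no overlap. Ercc5 rose 1.18-fold (log2 fold change 0.24 ± 0.06, SE, edgeR adjusted p = 0.0304), and the call remained only without control 212 or deletion 221 (0.21 to 0.27 over the 6 omissions). Against marker sums, Ercc5 was higher in every deletion library for 5 of 9 lists, palate mesenchyme included (35.5 to 38.3 against 29.4 to 34.4). It was lower for skeletal muscle (46.7 to 76.7 against 104 to 113) and cartilage (79.5 to 91.1 against 135 to 214), and overlapped for erythroid and for neuron and glia markers. Zmat3, an RNA-binding regulator of splicing, was at 38.0, 38.5 and 34.8 CPM in controls and 45.9, 42.6 and 38.8 CPM in deletion libraries (log2 fold change 0.19, edgeR adjusted p = 0.163). Rrm2b, the p53-inducible subunit of ribonucleotide reductase, went the other way, at 11.2, 9.84 and 9.75 CPM in controls and 7.77, 7.95 and 8.84 CPM in deletion libraries. All 3 of its deletion libraries lay below all controls, and the log2 fold change of -0.33 did not pass (95% interval -0.58 to -0.07, edgeR adjusted p = 0.12). Polk, a translesion polymerase, was at 21.3 to 22 and 20.2 to 22.2 CPM (log2 fold change -0.06).

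The 4 metabolic genes all overlapped between groups, and 0 of 4 passed by edgeR, DESeq2 or limma voom, with 0 of 4 at an unadjusted p under 0.05. Tigar, a fructose-bisphosphatase that limits glycolysis, was at 8.66 to 10.7 CPM in controls and 8.49 to 10.5 CPM in deletion libraries. Pltp, the phospholipid transfer protein, was at 34.1, 38.6 and 38.8 CPM in controls and 26.9, 31.4 and 42.8 CPM in deletion libraries. Deletion 221 was above every control and the other deletion libraries below. Pltp passed only without deletion 221 (log2 fold change -0.35 against -0.14 with all libraries). Exons of Pltp share 495 bases with Ctsa on the other strand, and without a stated strand setting their reads cannot be told apart. Dcxr, a carbonyl reductase, had a log2 fold change of -0.24 that became 0.34 with sex as a covariate, and Ak1, adenylate kinase, one of -0.21 that became 0.06.

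The last 3 genes were lower in every deletion library and 0 of 3 passed by edgeR, although 3 of 3 had an unadjusted p under 0.05. Over all genes tested, 22.5% had such a p and 13.5% had every deletion library below every control. Sulf2, an extracellular 6-O-sulfatase of heparan sulfate, was at 559.4, 489.0 and 494.3 CPM in controls and 420.1, 454.0 and 442.7 CPM in deletion libraries. Its log2 fold change was -0.23 (95% interval -0.37 to -0.09, edgeR adjusted p = 0.0588, DESeq2 adjusted p = 0.00963), so the call depended on the test. 9030617O03Rik, listed as a synonym of Dglucy in RefSeq, was at 5.74, 7.36 and 6.91 CPM in controls and 5.07, 4.49 and 5.42 CPM in deletion libraries (log2 fold change -0.42, edgeR adjusted p = 0.124). Cd80, the T cell costimulatory ligand of antigen-presenting cells, had 27, 27 and 19 counts in controls and 17, 11 and 9 counts in deletion libraries. These are 0.536, 0.546 and 0.418 CPM against 0.340, 0.241 and 0.201 CPM, without overlap, and the log2 fold change of -0.93 (95% interval -1.83 to -0.02) did not pass (edgeR adjusted p = 0.211). Macrophage markers, 0 of 9 of which passed by edgeR (3 of 9 at an unadjusted p under 0.05, 2 of 9 lower by DESeq2), summed to 123 to 166 CPM in controls and 115 to 129 CPM in deletion libraries, and their part in the Cd80 values was not tested.

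Levels between genes were compared as CPM per kilobase of union exon length, for the 33 members with a GENCODE M21 gene model. In controls, Sulf2 (87.6 CPM per kb) and Perp (52.1) led, followed by Trp53 (29.1), Bax (28.0), Phlda3 (26.3) and Plk2 (25.8). Over the controls every Trp53 value lay above every Plk2 value, and each of the remaining pairs among these last 4 genes overlapped, so that part of the order is not resolved. Mdm4 was at 18.8 and Mdm2 at 12.4 CPM per kb. The lowest were Eda2r (0.373), Cd80 (0.135) and Gdf15 (0.0188 CPM per kb). The BH3-only genes were close to each other in controls, with Pmaip1 at 1.99 to 2.39 and Bbc3 at 1.54 to 2.48 CPM per kb, and separated in deletion libraries, with Pmaip1 at 0.801 to 1.11 and Bbc3 at 2.50 to 2.96 CPM per kb.

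Other genes of the pathway were taken from lists by role, of which 70 of 72 symbols were in the table and 69 were tested. Of these, 3 rose and 3 fell, or 8.7%, against 7.01% of all genes tested, with a median log2 fold change of -0.01. Among 29 other p53 targets, 2 rose and 2 fell. Cdkn1a, which encodes the CDK inhibitor p21 and is the best known arrest target, was at 53.1, 58.0 and 48.9 CPM in controls and 39.0, 46.1 and 41.2 CPM in deletion libraries. Every deletion library lay below every control, and it fell 1.27-fold (log2 fold change -0.34 ± 0.08, SE, edgeR adjusted p = 0.0295). Pidd1, the scaffold of the PIDDosome that activates caspase-2, fell 1.28-fold (edgeR adjusted p = 0.019). Without control 213 or deletion 208, 0 pathway genes were called lower, so the calls of Cdkn1a and Pidd1 were lost there, as was that of Trp73 below. Of all genes, 1.81% and 2.77% were called in those 2 omissions.

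Rprm, which encodes the G2 arrest protein reprimo, was at 3.95, 3.98 and 4.55 CPM in controls and 9.51, 6.38 and 8.24 CPM in deletion libraries. It rose 1.93-fold (log2 fold change 0.95 ± 0.17, SE, edgeR adjusted p = 0.00758). Cdkn1a and Rprm, both arrest genes, thus differed in opposite directions, and neither passed with sex as a covariate (log2 fold changes -0.22 and 0.82).

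Of 24 upstream regulators and cofactors, among them the kinases Atm, Atr and Chek2, 1 rose and 0 fell by edgeR. By DESeq2 1 rose and 2 fell, and 8 of 24 had an unadjusted p under 0.05 by edgeR (22.5% of all genes tested). The riser by edgeR was Rpl5, a ribosomal protein that binds MDM2 under ribosomal stress. It was at 27.2, 24.6 and 29.1 CPM in controls and 37.28, 37.18 and 40.05 CPM in deletion libraries (1.42-fold, edgeR adjusted p = 0.00428). Ribosomal protein genes have many processed copies that can share reads, which leaves this value uncertain, and Rpl11, its partner on MDM2, did not pass (log2 fold change 0.01, edgeR adjusted p = 0.955). In the p53 family, Trp73 was at 18.8, 22.9 and 18.8 CPM in controls and 13.6, 14.0 and 15.7 CPM in deletion libraries and fell 1.40-fold (edgeR adjusted p = 0.0183). Trp63, the epithelial family member and one of the 14 epithelial markers, did not pass (log2 fold change -0.09, edgeR adjusted p = 0.866).

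The last list held 14 cell cycle genes that p53 represses through p21 and the DREAM complex. By edgeR 0 of 14 passed, with 1 of 14 at an unadjusted p under 0.05 and 0 of 14 by DESeq2 or limma voom. Their log2 fold changes lay between -0.14 and 0.05, with a median of -0.06. Of the 14, 12 were below 0 and 2 above, beside 9649 below and 9635 above 0 of all genes tested. With sex as a covariate, where the group difference rests on control 220 alone, the median was -0.15 and all 14 were below 0 (-0.26 to -0.05). Control 220 was the highest control for each gene of this list, such as Top2a at 537 CPM against 415 and 443 CPM. The larger shift below 0 in that fit rests on 1 library, and its cause was not tested. Ccnb2, a mitotic cyclin, had the smallest p, at 51.9 to 56.0 CPM in controls and 48.1 to 49.8 CPM in deletion libraries (log2 fold change -0.14, edgeR adjusted p = 0.193), followed by the survivin gene Birc5 (-0.10, edgeR adjusted p = 0.267).

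**Figure D5:**
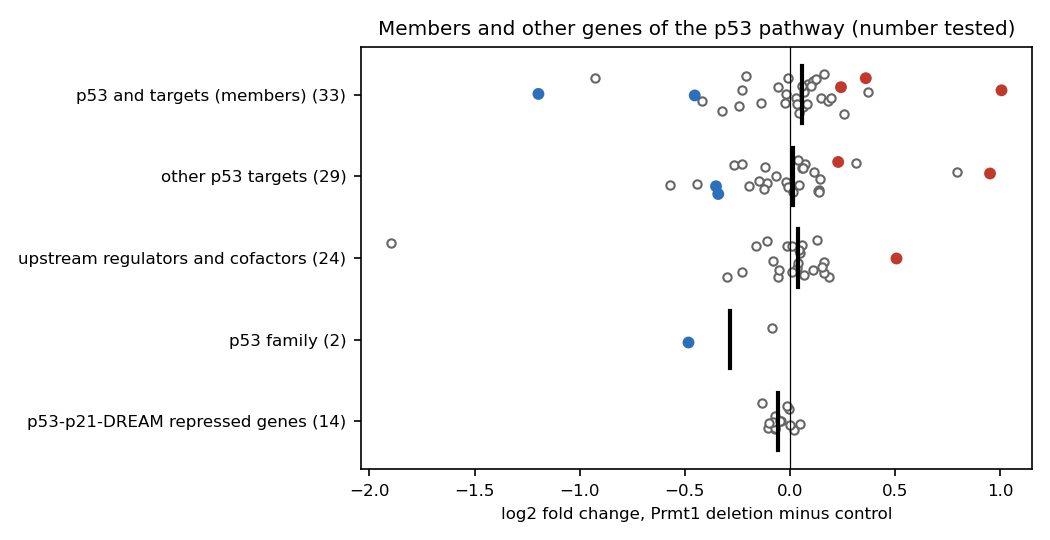
Log2 fold change (deletion minus control) of the members and of 4 lists of other p53 pathway genes, with the number tested in brackets. Filled points passed (red higher, blue lower), open points did not pass, and medians are drawn as black bars, which lie near 0 in all lists except the 2 genes of the p53 family.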

How the data were processed

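The build mm10 and the tools STAR 2.4.1d, CASAVA 1.8.2 and Partek are named, per the submitters' processing notes. Strand setting, annotation and counting tool: not given in the sources used here. Values deposited by the authors are estimated counts (expected counts, not normalized) per gene symbol. Column names give a library's group but not its sample, and 0 columns were left without a group. Counts of 19 of the 34 members were whole (within 0.01) in every library.

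Counts were rounded, filtered with filterByExpr (minimum count 10, minimum total 15; 19284 genes kept) and scaled by TMM. The 3 deletion and 3 control libraries were compared with edgeR 4.0.16 (glmQLFit with robust=TRUE, glmQLFTest) in R 4.3.3, with Benjamini-Hochberg adjustment over all genes tested and a threshold of 0.05. The SE is the log2 fold change over the square root of F. Scripts were tested on simulated data. Alternatives were DESeq2 1.42.0, limma 3.58.1 voom, other scalings and filters, robust=FALSE, embryo sex as a covariate, and omission of libraries. Positions and exon lengths came from GENCODE M21 (GRCm38, which mm10 names) and promoter sequences from RefSeq GRCm38.p6.

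Members, lists and tests were chosen with earlier results of these data known. Values by library are given for members past the threshold or past it with 1 library left out, for Trp53, Mdm2 and Mdm4, and for members without overlap and a log2 fold change of at least 0.3 in size. Of each pathway list, up to 4 genes of smallest p past the threshold are named, or 2 where none passed, and Prmt1 and Cdkn1a always, and 1 such gene is not reported here. Sesn1, Sesn2, Sulf2, Zmat3, Rpl11 and Trp63 fall outside the rule and were added once their values had been seen.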

Additional observations from a re-analysis of the deposited data

How the results depend on the processing

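Counts of members (3 higher, 2 lower) did not move by over 1.5 times under DESeq2 size factors, upper-quartile factors, limma voom, the DESeq2 Wald test (3 lower), no filter, a filter of CPM of 1 in 3 libraries, robust=FALSE or omission of erythroid, muscle and sex genes. They became 0 and 0 with sex as a covariate and 0 and 0 without the controls that differ in sex. With 1 library left out they were 1 to 3 higher and 1 to 2 lower: 1 higher without control 213 or deletion 211, and 1 lower without control 212, control 213, deletion 208 or deletion 211. Pathway genes (3 higher, 3 lower) were 0 and 0 in both sex settings, and 5 were lower with upper-quartile factors, 5 with DESeq2 and 6 without a filter. With 1 library left out 1 to 3 were higher and 0 to 5 lower, with 0 lower without control 213 or deletion 208 (12 and 14 at an unadjusted p under 0.05). Prmt1 was weaker with sex as a covariate (-0.24, edgeR adjusted p = 0.177) and without the controls that differ in sex (-0.24, edgeR adjusted p = 0.292), and with 1 library left out it ranged from -0.31 to -0.25 and missed the threshold without control 213, deletion 208 or deletion 211. The causes were not tested.

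Signs turned for 10 members that did not pass. The ranges with 1 library left out were -0.0909 to 0.0306 for Trp53, -0.00528 to 0.149 for Mdm4, -0.0123 to 0.0739 for Ccng1, -0.0365 to 0.194 for Fas, -0.0334 to 0.0950 for Aen, -0.0388 to 0.102 for Phlda3, -0.103 to 0.0266 for Gtse1, -0.0958 to 0.0663 for Tigar and -0.462 to 0.0645 for Dcxr. With sex as a covariate Dcxr was 0.335 and Ak1 0.0618, and without the controls that differ in sex they were 0.337 and 0.0641. No paired analysis was possible because the columns carry none of the replicate numbers in the titles. Depth limits Gdf15 and Cd80, with at most 27 counts in a library.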
